A study of Mus musculus with 16 samples.

Results

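Transcripts of 9 subunits of the neuronal nicotinic acetylcholine receptor, the alpha subunits Chrna2, Chrna3, Chrna4, Chrna5, Chrna6 and Chrna7 and the beta subunits Chrnb2, Chrnb3 and Chrnb4, were followed in the brains of adolescent mice given nicotine, ethanol, both or neither. They were chosen by symbol, as 9 of the 24062 genes in the count table, and all 9 were also among the 23991 genes of the FPKM table. RNA-seq was run on whole brains with the cerebellum attached from 16 female C57BL/6J mice, an inbred strain without engineered alleles, killed on postnatal day 45. There were 4 mice in each group. WW mice had only tap water. NW mice had 200 µg/ml nicotine in tap water for 22 h a day, on 6 days alone and then on the last 4 days, when the short daily session of a separate bottle held water. Water-Ethanol mice (plotted under their initials) had water in place of nicotine and 20% v/v ethanol in those 4 sessions under drinking-in-the-dark, a protocol that offers ethanol early in the dark phase. NE mice had both. Sessions lasted 2 h from postnatal day 42 and 4 h on the last day, after which the brains were taken, and each mouse drank its own amount. The study reported that NE mice drank more ethanol in the last session than Water-Ethanol mice, and had higher blood ethanol. Between these groups, nicotine and the dose of ethanol cannot be told apart.

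Nicotinic receptors are channels built from several subunits that open when acetylcholine, or nicotine, binds between an alpha subunit and its neighbour. Receptors of alpha4 and beta2 hold most high-affinity nicotine binding in the brain, alpha7 forms receptors from copies of itself, and alpha5 and beta3 join other subunits as accessory members without forming receptors of their own. Chronic nicotine is known to raise the number of alpha4 beta2 receptors at the protein level, which RNA counts do not measure. Transcripts of alpha3, alpha5 and beta4 are dense in the medial habenula, and those of alpha6 and beta3 in dopamine neurons of the midbrain.

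The subunit genes lie on 6 chromosomes of GRCm38, and 5 of them lie in 2 groups. Chrna5, Chrna3 and Chrnb4 follow each other on chromosome 9, Chrna5 on the plus strand from 54980880 to 55007779, Chrna3 on the minus strand from 55011343 to 55026559 and Chrnb4 on the minus strand from 55028156 to 55048544. Chrnb3 on the plus strand, from 27368711 to 27399730, and Chrna6 on the minus strand, from 27403212 to 27413944, are neighbours on chromosome 8. Chrna4 lies on chromosome 2 from 181022311 to 181039177, Chrnb2 on chromosome 3 from 89753448 to 89764632 and Chrna7 on chromosome 7 from 63098692 to 63212526, all on the minus strand. Chrna2 lies on the plus strand of chromosome 14 from 66140960 to 66152948. Chrna7 had 10 exons in the authors' gene models, Chrna2 had 7, and each of the other subunits had 6.

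Sequences of 250 bases before the transcription start were taken from RefSeq for GRCm38.p6, where 6 of the 9 subunits had an entry. Shown here are the starts of the 3 most abundant subunits and of Chrnb4, the least abundant subunit with an entry, each 5′ to 3′ on the strand of the gene. Capitals mark the GC box, GGGCGG or CCGCCC, a motif known as a binding site of Sp1 family factors. The windows are chr2:181039178-181039427 for Chrna4, chr3:89764633-89764882 for Chrnb2, chr7:63212527-63212776 for Chrna7 and chr9:55048545-55048794 for Chrnb4, all on the minus strand.
Chrna4: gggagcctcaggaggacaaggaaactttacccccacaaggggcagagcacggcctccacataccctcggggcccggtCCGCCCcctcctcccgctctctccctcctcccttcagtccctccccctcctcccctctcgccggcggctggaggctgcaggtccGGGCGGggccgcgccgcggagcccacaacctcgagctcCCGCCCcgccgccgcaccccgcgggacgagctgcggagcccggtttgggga
Chrnb2: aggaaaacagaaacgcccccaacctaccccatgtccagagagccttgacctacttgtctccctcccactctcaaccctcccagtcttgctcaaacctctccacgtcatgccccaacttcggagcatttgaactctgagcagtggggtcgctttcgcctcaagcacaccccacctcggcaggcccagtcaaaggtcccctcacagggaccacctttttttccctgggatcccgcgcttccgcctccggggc
Chrna7: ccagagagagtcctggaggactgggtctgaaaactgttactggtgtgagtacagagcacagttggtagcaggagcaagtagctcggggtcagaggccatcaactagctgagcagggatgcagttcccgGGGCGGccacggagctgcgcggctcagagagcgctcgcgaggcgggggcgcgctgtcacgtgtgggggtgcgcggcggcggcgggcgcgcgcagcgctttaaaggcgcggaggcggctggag
Chrnb4: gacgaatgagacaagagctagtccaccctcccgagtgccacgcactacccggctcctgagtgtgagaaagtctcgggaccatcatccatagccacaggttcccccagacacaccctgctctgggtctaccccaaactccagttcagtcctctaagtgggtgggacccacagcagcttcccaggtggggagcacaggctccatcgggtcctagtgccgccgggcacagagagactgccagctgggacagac

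The motif was searched on both strands. Chrna4 had 3 GC boxes, 24 CpG dinucleotides and a GC content of 74.4%. Chrna7 had 1 box, 25 CpG and 67.2% GC. Chrnb2, the subunit with the highest transcript level, had 0 boxes, 10 CpG and 59.6% GC, and Chrnb4 had 0 boxes, 8 CpG and 61.2% GC. Chrna3 had 1 box. Of the 2 starts listed for Chrna5, the upstream one had 0 boxes and 40% GC and the downstream one had 4 boxes and 65.2% GC. Among all 32851 windows of this length, 32.7% held a box and 8.47% held 3 or more, with a median of 6 CpG and 52.4% GC. The number of boxes did not follow the order of the transcript levels among these 6 subunits, and a match to the letters is a description of the sequence only.

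Counted reads per mouse ran from 27100352 to 32880979. WW mouse 21 and NW mouse 10 stood apart from the others in cerebellar transcripts. The summed level of 6 cerebellar markers was 330 and 431 CPM (counts scaled to a library of 1 M reads) in these mice, and 777 to 917 CPM in the other 14. Markers of tissue next to the brain also varied, with 5 olfactory epithelium markers summing to 28.6 CPM in 1 WW mouse and at most 10.9 CPM in the treated mice, and 6 pituitary markers to 17.0 CPM in 1 NW mouse and at most 3.18 CPM in WW. Neurons, astrocytes, oligodendrocytes and microglia were all represented by their markers. For the medial habenula 6 of 6 markers had reads, at 85.7 to 110 CPM summed, and for dopamine neurons 9 of 9 did, at 183 to 234 CPM. Nwd2 and Lrrc55 held most of the habenular sum (medians 58.3 and 27.6 CPM). Gpr151, Gng8 and Pou4f1 had medians of 1.54, 0.934 and 2.40 CPM. Aldh1a1 and Ret held most of the dopamine sum (116 and 31.8 CPM), and Pitx3, at 0.135 CPM, was too low to test. Of all the marker genes tested in the 6 comparisons, only the astrocyte gene Aldh1l1 (log2 fold change -0.19 ± 0.05 SE, adjusted p = 0.0385) and the microglial gene Cx3cr1 (-0.20 ± 0.05 SE, adjusted p = 0.0387) passed edgeR's test, both lower with ethanol when mice with and without nicotine were pooled. In that pooled comparison 4.5% of 15592 genes passed. In whole brain RNA, fewer cells of a type and less RNA per cell cannot be told apart.

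The subunits fell into distinct classes of level, given as FPKM (fragments scaled by transcript length and by the number of mapped fragments), a scale on which genes of different length can be compared. Chrnb2, the usual beta partner of alpha4, was the highest, with a median of 16.3 FPKM and a range of 15.04 to 17.0 FPKM over the 16 mice. Chrna4 followed at a median of 11.6 FPKM (10.8 to 12.7), and Chrna7 at 6.36 FPKM (5.34 to 7.74). Each of these was above the next in 16 of 16 mice. They held 41.6%, 29.7% and 16.3% of the summed FPKM of the 9 subunits.

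Chrna6 had a median of 1.17 FPKM (0.910 to 1.53), Chrna3 of 1.13 FPKM (0.955 to 1.24) and Chrna5 of 1.03 FPKM (0.880 to 1.42). These 3 were not separated mouse by mouse. Chrna6 was above Chrna3 in 12 of 16 mice and Chrna3 above Chrna5 in 11 of 16. Below them stood Chrnb3, at a median of 0.715 FPKM (0.556 to 0.874), under Chrna5 in all 16 mice. Chrnb4, the beta partner of alpha3 in the habenula, had a median of 0.430 FPKM (0.346 to 0.494) and was under Chrnb3 in all 16. Chrna2 was the lowest at a median of 0.352 FPKM (0.205 to 0.502), and Chrnb4 was above it in 12 of 16 mice. The highest median was 46.2 times the lowest. The order was the same when CPM were divided by the exonic length in the count table.

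**Figure D1:**
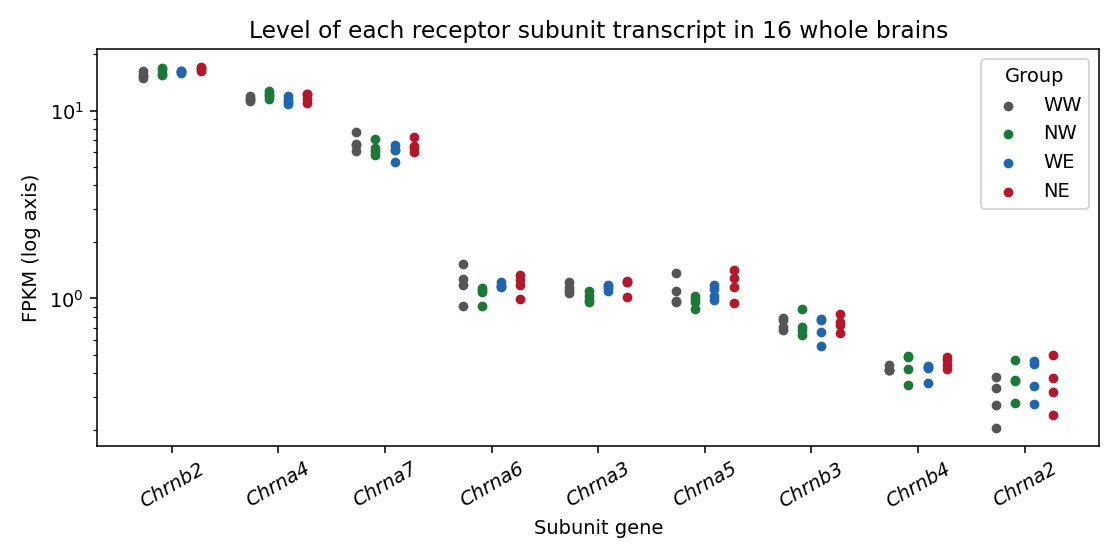
Each point is 1 mouse, with the subunit on the x axis, the FPKM of its transcript on a log y axis and the group in colour (initials for Water-Ethanol). Chrnb2, Chrna4 and Chrna7 stand apart from the other 6 subunits, and within a subunit the groups lie close together.

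The number of reads behind each subunit followed this order and set how much could be seen. Chrnb2 had 2168 to 2738 reads per mouse, Chrna4 1273 to 1689 and Chrna7 310 to 428. Chrna2 had only 19 to 44 and Chrnb4 31 to 52. Over the 16 mice the coefficient of variation of CPM was 3.55% for Chrnb2 and 4.54% for Chrna4, against 2.02% and 2.60% that counting alone gives. For Chrnb4 it was 9.41%, below the 15.4% of counting, and for Chrna3 7.10% against 10.4%. The mice thus differed in Chrnb4 and Chrna3 by no more than counting error gives. Chrna2 varied most, by 25.5% against 18.1%.

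The first question was whether nicotine, ethanol or both moved any subunit transcript. Counts were compared with edgeR's quasi-likelihood test in the 8 mice of each pair of groups, with p adjusted over all genes tested by the Benjamini-Hochberg method and a threshold of 0.05. None of the 9 subunits passed in NW against WW (0 of 9, where 0% of 15344 genes passed), in Water-Ethanol against WW (0 of 9, where 0.457% of 15323 passed) or in NE against WW (0 of 9, where 0.313% of 15313 passed). Pooled over 16 mice, none passed for nicotine (0%) or for ethanol (4.5% of 15592 genes), and none for the nicotine by ethanol interaction (0%). At an unadjusted p under 0.05 the NW and Water-Ethanol comparisons each held 0 subunits and the NE comparison 1, where 8.44%, 19.3% and 17.5% of all genes passed. They numbered 1 for pooled nicotine and 0 for pooled ethanol and for the interaction, against 10.3%, 22.9% and 6.76%. Both single cases were Chrnb2. DESeq2, which called 123 genes in NW, 104 for pooled nicotine and 2 for the interaction where edgeR called 0, called no subunit. It gave an adjusted p only to Chrnb2, Chrna4 and Chrna7 against WW and for pooled nicotine, to 7 of 9 subunits for pooled ethanol and to 9 of 9 for the interaction, so the other subunits could not be called there.

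Chrnb2 was highest in the mice that had both drugs. In WW mice it measured 83.1, 80.5, 79.0 and 77.0 CPM, and in NE mice 84.5, 84.4, 87.2 and 87.4 CPM. All 4 NE mice were above all 4 WW mice, and it was the only subunit of the 9 whose groups did not overlap in a comparison with WW. For NE and WW 10.7% of all genes tested had such a separation, and 0 of 9 subunits had it in NW (5.96% of genes) or Water-Ethanol (10.8%). NW mice had 85.0, 87.0, 82.4 and 80.7 CPM and Water-Ethanol mice 83.5, 80.9, 83.7 and 82.5 CPM, between the others and overlapping WW.

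The Chrnb2 means were 79.9 ± 2.58 CPM (SD, n = 4) in WW, 83.8 ± 2.76 in NW, 82.6 ± 1.29 in Water-Ethanol mice and 85.9 ± 1.64 in NE. The log2 fold change of NE over WW was 0.11 ± 0.04 (SE), a fold between 1.02 and 1.14 by the 95% interval. Its p of 0.0122 by edgeR's quasi-likelihood test was 0.169 after adjustment, so it did not pass. The exact two-sided permutation test gave p = 0.0286, the smallest that 4 against 4 mice allow. In CPM, NE mice were also above all Water-Ethanol mice (exact permutation p = 0.0286, with 3.52% of 15592 genes separated this way), and overlapped NW mice (exact permutation p = 0.314). In FPKM the NE and Water-Ethanol mice overlapped, at 16.27 to 17.02 and 15.83 to 16.38. NE mice stayed above WW mice there, which had 15.04 to 16.24 FPKM. Neither NE and NW (7.37% of genes) nor Water-Ethanol and NW (10.1%) were separated for any subunit. Pooled over both ethanol conditions, nicotine mice exceeded the others by 0.06 ± 0.03 (SE) on the log2 scale, with adjusted p = 0.404 by edgeR. In CPM 6 of 8 nicotine mice were above every mouse without nicotine. The share of all genes with such a split was not computed. Fewer were above in FPKM, where NE mouse 3 (16.27) lay below Water-Ethanol mouse 13 (16.38). After correction for transcript GC content the NE difference was 0.08 ± 0.04 (SE) and the pooled nicotine difference 0.04 ± 0.02 (SE), with unadjusted p of 0.0587 and 0.152 by edgeR. WW mouse 21, low in cerebellar transcripts, was the lowest in Chrnb2, and without it the difference was 0.09 ± 0.04 (SE), adjusted p = 0.203 by edgeR. Other markers also differed between NE and WW. The 5 meningeal markers, all with reads, summed to 104 to 195 CPM in WW (median 127) and 95.8 to 105 CPM in NE. In NE 5 of 5 were lower at an unadjusted p under 0.05 by edgeR, which 17.5% of all genes passed in either direction. The 5 olfactory bulb markers, all with reads, summed to 167 to 180 CPM in WW and 129 to 157 CPM in NE, and 3 of 5 were lower at that threshold. Both lists were also lower in the other treated groups. The median log2 fold change of the meningeal markers was -0.27 in NW and -0.39 in Water-Ethanol, and that of the olfactory bulb markers -0.26 and -0.25. None of these markers passed after adjustment, and their part in the Chrnb2 difference was not tested.

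Chrnb2 shares its locus with Adar, an RNA editing enzyme on the opposite strand. Their exons overlapped by 8 bases in the authors' count table, from 89753448 to 89753455, out of 5384 exonic bases of Chrnb2 there. In GENCODE they overlapped by 1365 bases between 89746565 and 89753446. Those bases lie outside the Chrnb2 exons of the count table, which begin at 89753448. Adar was 246, 244, 248 and 239 CPM in WW and 259, 261, 266 and 267 CPM in NE, also without overlap. Unlike Chrnb2, Adar was also above all WW mice in every NW and Water-Ethanol mouse. The Adar means there were 255 and 257 CPM, against 244 CPM in WW. Such a separation from WW was found in 5.96% (NW), 10.8% (Water-Ethanol) and 10.7% (NE) of all genes tested. In NE the log2 fold change of Adar was 0.11 ± 0.03 (SE), adjusted p = 0.118 by edgeR. The sample labels name a TruSeq RNA kit without the word stranded, while the study's methods name a stranded kit and a first-strand setting (fr-firststrand) for the alignment. Whether the counting used strand is not given in the sources used here. If strand was ignored, reads of the 2 genes at the 8 bases shared in the counts cannot be told apart. The part of Adar in the Chrnb2 values was not tested.

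Chrna4, which pairs with Chrnb2 in the main brain receptor, was 48.4, 49.5, 49.7 and 50.9 CPM in WW and 53.1, 49.8, 53.2 and 51.7 CPM in NW. It was 50.6, 48.3, 47.5 and 45.8 CPM in Water-Ethanol and 46.3, 52.5, 51.9 and 49.8 CPM in NE. In NW 3 of 4 mice were above all WW mice, and in Water-Ethanol 3 of 4 were below them, while NE mice lay on both sides. The log2 fold change was 0.07 ± 0.04 (SE) in NW (adjusted p = 0.706 by edgeR, exact permutation p = 0.0571), -0.04 ± 0.04 in Water-Ethanol mice (adjusted p = 0.598) and, in the NE group, 0.02 ± 0.05 (adjusted p = 0.898). Pooled nicotine gave 0.06 ± 0.03 (SE), adjusted p = 0.523, and pooled ethanol -0.05 ± 0.03 (SE), adjusted p = 0.362, in edgeR. After correction for GC content the NW value was 0.02 ± 0.04 and the pooled nicotine value 0.03 ± 0.03 (SE). The precision was the best of the alpha subunits. The 95% intervals of Chrna4 against WW ran from a fold of 0.910 to 1.120 over the 3 treated groups.

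Chrna7, the subunit of the fast calcium-permeable receptor, was 15.7, 13.2, 12.9 and 13.8 CPM in WW. It was 11.7, 11.8, 14.6 and 12.7 CPM in NW, 12.9, 12.5, 13.4 and 11.2 CPM in Water-Ethanol and 12.1, 15.1, 13.01 and 13.2 CPM in NE. The means of the treated groups were all below the WW mean, and every treated group overlapped WW. The log2 fold change was -0.13 ± 0.09 (SE) with nicotine, -0.15 ± 0.08 with ethanol and -0.05 ± 0.08 with both, with adjusted p of 0.729, 0.331 and 0.794 by edgeR. Without the highest WW mouse, number 18 at 15.7 CPM, these values were -0.06, -0.08 and 0.01. Without NW mouse 10, low in cerebellar transcripts, the nicotine value was -0.21 (unadjusted p = 0.0320, adjusted 0.444 by edgeR), and without WW mouse 21 as well it was -0.20.

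**Figure D2:**
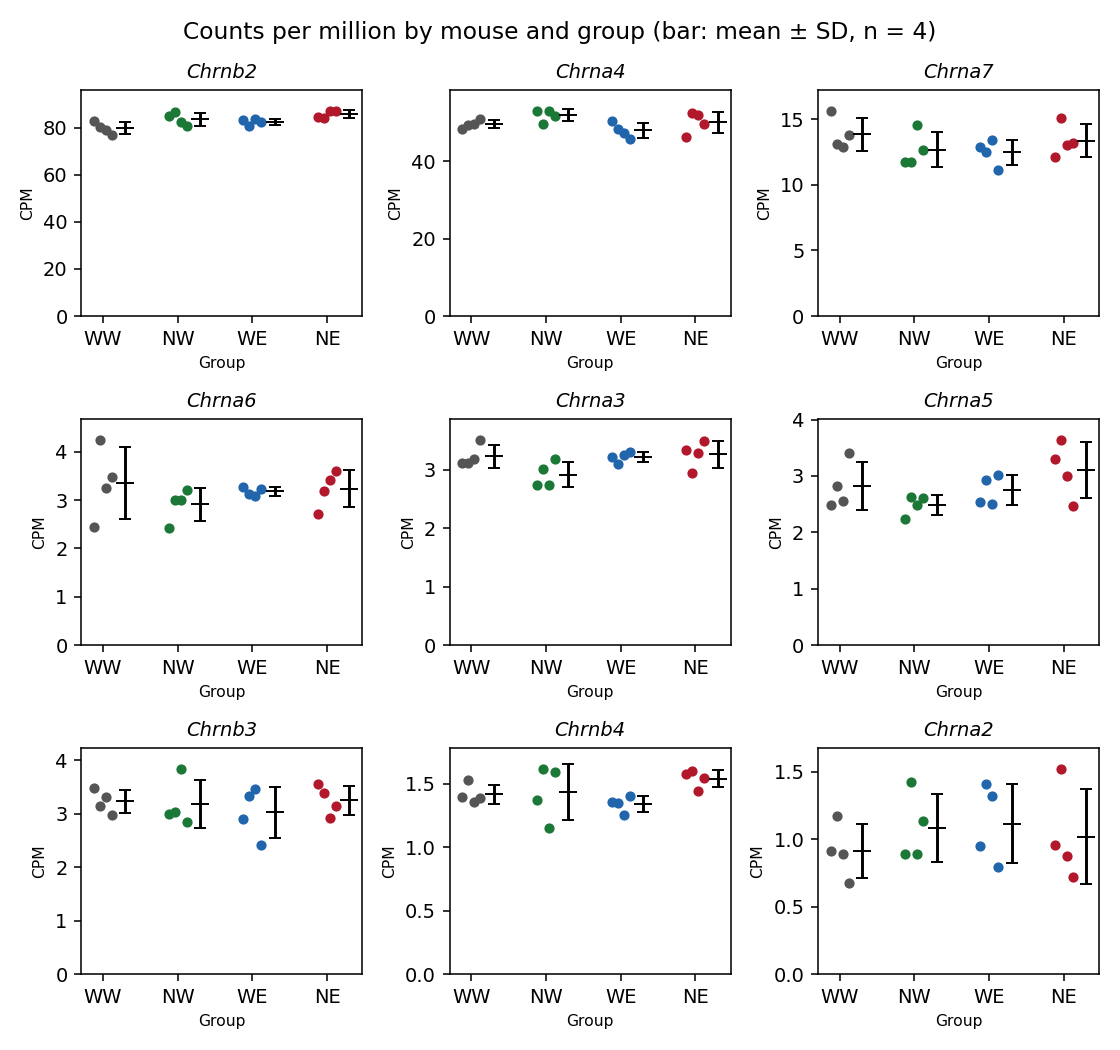
Each panel is 1 subunit, with the group on the x axis and CPM from 0 on the y axis. Points are mice and bars are the mean ± SD of 4 mice. Only in the Chrnb2 panel do the 4 NE mice lie above all 4 WW mice.

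The habenular subunits were low and close between groups. Chrna5 was 2.49, 2.83, 2.55 and 3.41 CPM in WW, 2.24, 2.62, 2.48 and 2.60 CPM in NW, 2.54, 2.93, 2.50 and 3.02 CPM in Water-Ethanol and 3.30, 3.64, 2.99 and 2.47 CPM in NE. NW had the lowest mean and NE the highest, yet 1 NE mouse lay below all WW mice. Its log2 fold change was -0.18 ± 0.14 (SE) with nicotine, -0.04 ± 0.13 with ethanol and 0.14 ± 0.15 with both, with adjusted p of 0.752, 0.916 and 0.677 by edgeR. Leaving out 1 mouse moved the nicotine value between -0.23 and -0.08 (the latter without WW mouse 21) and the value with both between 0.06 (without NE mouse 3) and 0.24 (without WW mouse 21). The interaction of nicotine and ethanol was 0.36 ± 0.19 (SE) on the log2 scale, the largest positive value among the subunits, with unadjusted p = 0.0762 and adjusted p = 0.772 by edgeR.

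Chrna3, the alpha subunit of the ganglionic and habenular receptor, was 3.11, 3.12, 3.18 and 3.52 CPM in WW and 2.75, 3.01, 2.74 and 3.18 CPM in NW. In NW 3 of 4 mice were below all WW mice (log2 fold change -0.14 ± 0.11 SE, adjusted p = 0.758 by edgeR). Water-Ethanol mice had 3.09 to 3.31 CPM and NE mice 2.94 to 3.50 CPM, around the WW values. Chrnb4 was 1.39, 1.53, 1.36 and 1.39 CPM in WW, 1.37, 1.62, 1.15 and 1.59 CPM in NW, 1.35, 1.34, 1.25 and 1.40 CPM in Water-Ethanol and 1.57, 1.60, 1.45 and 1.54 CPM in NE. In CPM all 4 NE mice were above all 4 Water-Ethanol mice (exact permutation p = 0.0286, not adjusted over genes, with 3.52% of genes separated this way) and 3 of 4 were above all WW mice (exact permutation p = 0.0571). In FPKM the NE and Water-Ethanol mice overlapped, at 0.420 to 0.486 and 0.353 to 0.435. Water-Ethanol mice had 36 to 40 reads. Against WW the log2 fold change of Chrnb4 in NE was 0.12 ± 0.13 (SE), adjusted p = 0.725 by edgeR, on 43 to 51 reads per mouse. In all, 54 such exact tests were run on the 9 subunits over the 6 pairs of groups, and 3 reached the smallest p, namely Chrnb2 in NE against WW and against Water-Ethanol, and Chrnb4 in NE against Water-Ethanol.

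The midbrain subunits gave no separation between any pair of groups. Chrna6, the alpha subunit typical of dopamine neurons, ranged over 2.45 to 4.26 CPM in WW, 2.43 to 3.21 in NW, 3.09 to 3.28 in Water-Ethanol mice and 2.72 to 3.60 in NE. The spread was widest in the WW mice themselves, with an SD of 0.743 CPM. The largest difference from WW was in NW, at -0.21 ± 0.16 (SE, adjusted p = 0.761 by edgeR). Chrnb3 ranged over 2.98 to 3.48 CPM in WW, 2.85 to 3.85 in NW, 2.41 to 3.47 in Water-Ethanol mice and 2.92 to 3.55 in NE, and its log2 fold changes lay between -0.09 and 0.01. Chrna2, a subunit of certain interneurons, ranged over 0.675 to 1.17 CPM in WW, 0.888 to 1.42 in NW, 0.791 to 1.41 in Water-Ethanol mice and 0.720 to 1.52 in NE. Its fold changes were the largest of all in size, 0.25 ± 0.23 (SE) in NW and 0.29 ± 0.23 in Water-Ethanol, and also the least certain, with adjusted p of 0.791 and 0.525 by edgeR.

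The 9 subunits did not move together. The log2 fold change was above 0 for 4 of 9 subunits with nicotine, 2 of 9 with ethanol and 7 of 9 with both, with medians of -0.02, -0.04 and 0.02, beside medians of 0.01, 0.0015 and 0.0039 over all genes tested. These comparisons share the WW mice. Over the 3 treated groups the widest 95% intervals reached a fold of 0.674 at the lower end, for Chrna6 in NW, and of 1.74 at the upper end, for Chrna2 in Water-Ethanol. For Chrnb2 the intervals lay between 0.982 and 1.14.

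**Figure D3:**
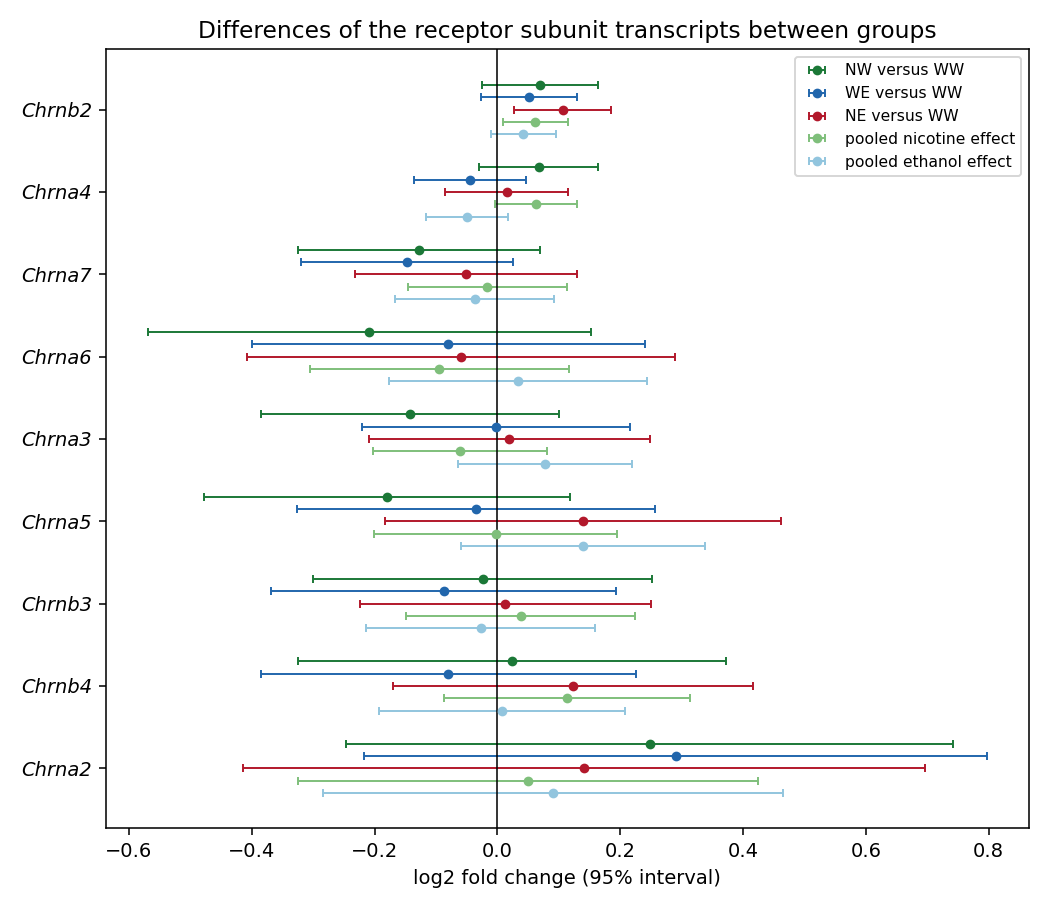
Points are log2 fold changes from edgeR and lines their 95% intervals, with subunits in order of level on the y axis and the comparison in colour (initials for Water-Ethanol). The Chrnb2 intervals for NE against WW (0.03 to 0.18) and for pooled nicotine lie above 0 and every other interval spans 0, while the intervals widen toward Chrna2.

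Ratios of partner subunits were taken within each mouse, as log2 of the ratio of FPKM. They are descriptions and were not tested. Chrna4 stood at a median of 0.726 of Chrnb2 over the 16 mice. The median ratio was 0.750 in WW and 0.765 in NW, and 0.701 in Water-Ethanol and 0.703 in NE, and the groups overlapped. Chrna5, the accessory partner of alpha4 beta2 receptors, was a median 0.0870 of Chrna4, with group medians from 0.0815 in NW to 0.104 in NE. Chrna6 was 1.59 times Chrnb3, Chrna3 was 2.70 times Chrnb4 and Chrna5 was 0.950 of Chrna3 by the median. The ratio of Chrna3 to Chrnb4 had its lowest median in NW, at 2.27, while the other groups had 2.70 to 2.73.

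**Figure D4:**
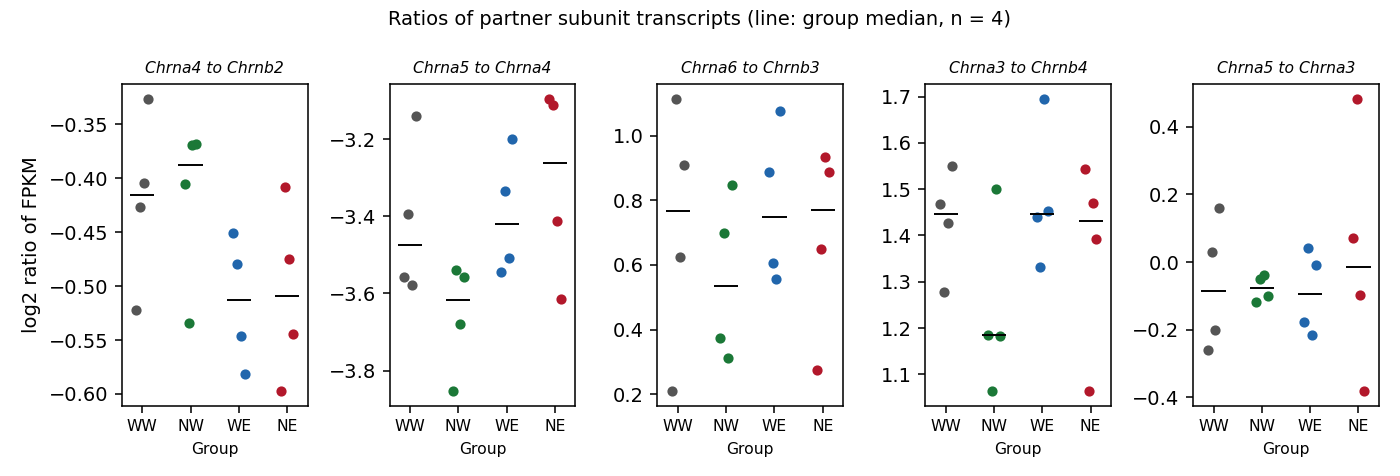
Each panel is 1 pair of subunits, with the group on the x axis (initials for Water-Ethanol) and the log2 ratio of FPKM on the y axis, whose range differs between panels. Points are mice and lines group medians, and the 4 groups overlap in every panel.

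Subunits that assemble together were also asked whether they rose and fell together from mouse to mouse. Pearson's r and Spearman's rho of log2(CPM + 1) were computed for 36 pairs over 16 mice after the group means were removed. Each had a permutation p, adjusted over the 36 pairs. The permutations moved values freely among the 16 mice, not within groups, and took no account of the removed means. These p may therefore be too small. No pair passed, the lowest adjusted p being 0.262 for r and 0.180 for rho. Textbook partners had r of -0.18 (Chrna4 and Chrnb2), -0.32 (Chrna6 and Chrnb3), 0.33 (Chrna3 and Chrnb4), 0.29 (Chrna5 and Chrnb4) and 0.01 (Chrna3 and Chrna5). In all 17 of 36 pairs had r above 0 and the median r was -0.0054. The farthest from 0 was Chrna5 with Chrnb2, which were opposed (r = -0.60, permutation p = 0.0142, adjusted 0.262, and rho = -0.68, permutation p = 0.0050, adjusted 0.180). Both can share a receptor with alpha4, though this pair was not among the partners listed above. Without the 2 mice farthest from the median its r was -0.49. Chrna7 and Chrnb3 had r = 0.60 (permutation p = 0.0145, adjusted 0.262) and rho = 0.47 (permutation p = 0.0660, adjusted 0.464), with r = 0.46 without 2 mice. At these levels counting error makes up much of the spread of the low subunits.

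**Figure D5:**
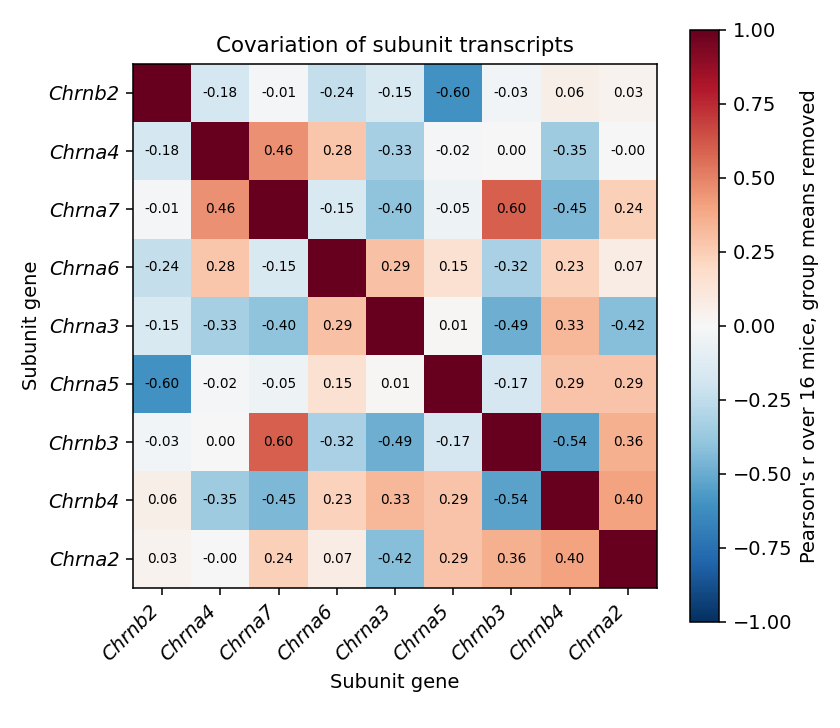
Each cell gives Pearson's r of the 2 subunits named on the axes over 16 mice with group means removed, in colour from -1 to 1. Values run from -0.60 to 0.60 and the textbook partner pairs listed in the text do not stand out. The lowest value is Chrna5 with Chrnb2, which can also share a receptor.

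The genes most like each subunit in the same measure, taken from the best 3 of 15592 for each, are given as a description without a test, since the best of so many over 16 mice is high in any data. Chrna6 was closest to Tmem100 (r = 0.86) and Chrm5 (r = 0.85), the latter the muscarinic receptor of dopamine neurons, although the rho of Chrm5 was 0.63. Chrna5 was closest to Stat6 (r = 0.92), Chrnb4 to Add3 (r = 0.93) and Chrna2 to Cst6 (r = 0.88). Chrnb2 was closest to Prkab1 (r = 0.86), Chrna7 to Ubr3 (r = 0.86), Chrnb3 to Mki67 (r = 0.81) and Chrna3 to Eri2 (r = 0.79). No subunit was among the 3 closest genes of another.

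Of the 7 other subunit genes, which serve mainly muscle and the inner ear, Chrna9, Chrnd, Chrne and Chrng had too few reads to test, at most 0.173 CPM in any mouse. Chrnb1 and Chrna10 were tested and did not pass. Chrna1, the muscle alpha subunit, was 0.329, 0.260, 0.265 and 0.284 CPM in WW, on 8 to 9 reads a mouse, and 0.367 to 0.541 CPM in the 12 treated mice. In CPM all treated mice were above all WW mice. Taken 1 comparison at a time, 5.96% (NW), 10.8% (Water-Ethanol) and 10.7% (NE) of all genes tested were separated from WW in either direction. The share of genes with all 12 treated mice on 1 side of WW was not computed. In FPKM no treated group was separated from the WW mice, which had 0.186 to 0.271 FPKM. There NW mouse 11 (0.164) and NE mouse 5 (0.184) were below all WW mice, and Water-Ethanol mouse 15 (0.248) lay among them. The log2 fold changes of Chrna1 against the same WW mice were 0.74 ± 0.25 (SE) with nicotine, 0.66 ± 0.26 with ethanol and 0.63 ± 0.26 with both. The adjusted p were 0.449, 0.224 and 0.276 by edgeR, so Chrna1 did not pass.

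Genes for proteins that fold, traffic or modulate the receptors were a second list, and 10 of the 16 in the table had a median FPKM above that of Chrnb2. Ywhah, a 14-3-3 protein that binds alpha4, had a median of 535 FPKM, Vsnl1, a calcium sensor that binds alpha4, 345 FPKM, Lynx1, a brake on receptor opening, 111 FPKM and Ly6h, which holds back alpha7, 94.1 FPKM. Of 14 such genes tested none passed in any of the 6 comparisons. At an unadjusted p under 0.05, 2 were higher in NW (Pick1 and Lypd6b), 1 was higher in NE (Pick1) and 1 was lower in Water-Ethanol (Ly6e), where 8.44%, 17.5% and 19.3% of all genes passed in NW, NE and Water-Ethanol mice. Ly6e was 0.08 ± 0.03 (SE) higher on the log2 scale with pooled nicotine (adjusted p = 0.384 by edgeR) and -0.08 ± 0.03 (SE) with pooled ethanol (adjusted p = 0.136). Lypd6b was 0.12 ± 0.05 (SE) higher with pooled nicotine (adjusted p = 0.421 by edgeR). The chaperones Ric3 and Tmem35, which help alpha7 assemble, had 24.7 and 38.2 FPKM and log2 fold changes within their errors of 0 for pooled nicotine, at 0.02 ± 0.03 and -0.02 ± 0.04 (SE).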

How the data were processed

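Whole brain RNA from 16 mice, 4 per group by the sample labels, was sequenced as single reads. Per the labels and the study's methods, Trimmomatic 0.32 and TopHat2 were used for trimming and alignment (GRCm38). The authors deposited whole read counts per gene that were not normalized. The deposited FPKM, made with Cufflinks and Cuffdiff, are adjusted for length and do not show depth. The counting program is not given in the sources used here. Mice were separate animals.

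Counts were normalized by TMM, filtered with filterByExpr and tested with edgeR 4.0.16 in R 4.3.3 at an adjusted p of 0.05. Pooled effects and the interaction came from 1 fit of all 16 mice. Standard errors are the absolute log2 fold change over the square root of F. CPM used TMM factors over 15592 genes. Exact two-sided permutation tests on log2(CPM + 1) served single subunits, and 100000 permutations served pairs over mice (Python 3.11.15, pandas 2.3.3, numpy 2.4.6, plots in matplotlib 3.10.9). Alternatives were RLE factors, DESeq2 1.42.0, no filter, limma 3.58.1 on log2(FPKM + 1) and log2(FPKM + 0.1), a GC correction (lowess, span 0.3, Biostrings 2.70.1, GC known for 98.1% of genes), fits of all mice and leaving out each mouse. Left out together after seeing the data were WW mouse 21 and NW mouse 10, and log2(FPKM + 1) for the pairs and the values of Adar were likewise added then. The fits were tested on simulated data.

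All 9 subunits are reported in every comparison. For each, genes were taken from the 3 of highest r, and not every such gene is reported here, with all other subunits listed, the 4 most abundant accessory genes and any that passed. Other genes were named after their values were seen. The members and lists were chosen with earlier results of these data known. Marker lists of 13 kinds of cell or tissue were used as checks. Positions come from the count table.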

Additional observations from a re-analysis of the deposited data

Results flagged for a closer look

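Chrna3 in WW mouse 21 stood apart from its group at 3.517 CPM, while the other 3 WW mice had 3.11 to 3.18 CPM. It had 99 reads, where the others had 85, 96 and 96. In FPKM it had 1.22 and the others 1.15, 1.08 and 1.11. In 36 groups of 4 mice checked this way with Dixon's 95% critical value of 0.829, chance flags about 1 in 20. This mouse was also low in cerebellar transcripts, at 330 CPM summed over 6 markers, and the part of that in its Chrna3 level was not tested. Without it the log2 fold change of Chrna3 in NW was -0.0983 in place of -0.14.

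Chrnb4 values lay on opposite sides with ethanol in the presence and absence of nicotine. All 4 Water-Ethanol mice were below the WW mean of 1.42 CPM and all 4 NE mice were above the NW mean of 1.43 CPM, and the 2 ethanol effects differed by 0.1854 CPM. In FPKM this did not hold. Water-Ethanol mice 13, 14 and 16 had 0.428, 0.435 and 0.432 FPKM, above the WW mean of 0.423. NE mouse 2 had 0.420 FPKM, below the NW mean of 0.436. The pattern by mouse was not tested as such, and the interaction in edgeR was 0.18 ± 0.19 (SE) on the log2 scale with adjusted p = 0.912.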

How the results depend on the processing

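No paired analysis was possible because the groups share no replicate numbers. No subunit passed in any alternative that gave it an adjusted p, which DESeq2 did for 3 of 9 subunits against WW, and the lowest adjusted p was 0.138, for Chrnb2 in NE by DESeq2. The Chrnb2 difference in NE stayed between 0.08 and 0.13 on the log2 scale, with adjusted p between 0.138 and 0.402. Low read counts limit Chrna2 and Chrnb4 most, and whole brain RNA does not resolve brain regions. The level order was the same per length in both tables. For the pairs in FPKM only r was computed, without a test. The values farthest from 0 were -0.66 for Chrnb3 with Chrnb4 and -0.60 for Chrna5 with Chrnb2.

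Calls over all genes moved widely, and the cause was not tested. DESeq2 gave 123 (NW), 603 (Water-Ethanol), 517 (NE), 104 (pooled nicotine), 1093 (pooled ethanol) and 2 (interaction), where edgeR gave 0, 70, 48, 0, 702 and 0. Fits of all 16 mice gave 112 in NW and 28 in Water-Ethanol. In Water-Ethanol no filter gave 143, the GC correction 39 and limma 0 with either pseudocount. In NE limma gave 18 with either and the GC correction 11. Without WW mouse 21 and NW mouse 10 pooled ethanol gave 1061. Leaving out 1 mouse gave 0 to 797 in Water-Ethanol and 0 to 283 in NE, both highest without WW mouse 21, 0 to 49 for pooled nicotine (highest without NW mouse 11) and 280 to 899 for pooled ethanol. In Water-Ethanol the count was 84 without WW mouse 18 and 0 or 1 without any other mouse but WW mouse 21, and in NE it was at most 11 without any mouse but that one. Pooled nicotine gave 14 without NE mouse 2. Pooled ethanol gave 280 to 427 without WW mice 19 and 20, Water-Ethanol mice 15 and 16, NW mouse 8 and NE mice 2 and 4.

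Of 54 log2 fold changes, 22 took the other sign in some fit, none larger than 0.14 in size. With the GC correction these were Chrnb3 0.0142 and Chrnb4 -0.0017 in NW, Chrna3 0.0112 in Water-Ethanol, Chrna4 -0.0338 in NE, Chrna5 0.0134 and Chrna7 0.0153 for pooled nicotine, and Chrna4 0.0265 and Chrnb2 0.0135 for the interaction. With limma they were Chrna3 0.00404 and 0.0073 in Water-Ethanol and Chrna7 0.0070 and 0.0084 for pooled nicotine. Without both mice low in cerebellar transcripts they were Chrna5 0.0504 and Chrnb3 -0.0272 for pooled nicotine, and Chrna2 -0.0086, Chrnb3 0.0039 and Chrnb4 -0.0417 for pooled ethanol. Leaving out 1 mouse turned 54 of 648 values. The values in NW ran for Chrnb3 from -0.131 to 0.0273, Chrnb4 from -0.0368 to 0.103. The values in Water-Ethanol ran for Chrna3 from -0.0197 to 0.0401, Chrna5 from -0.0877 to 0.0670, Chrna6 from -0.200 to 0.0571, Chrnb3 from -0.159 to 0.00378. The values in NE ran for Chrna2 from -0.102 to 0.288, Chrna3 from -0.0165 to 0.0654, Chrna4 from -0.00686 to 0.0494, Chrna6 from -0.180 to 0.0782, Chrna7 from -0.114 to 0.0112, Chrnb3 from -0.0363 to 0.0597. The values for pooled nicotine ran for Chrna2 from -0.0709 to 0.125, Chrna5 from -0.0426 to 0.0482, Chrna7 from -0.0496 to 0.0160, Chrnb3 from -0.00908 to 0.0739. The values for pooled ethanol ran for Chrna2 from -0.0319 to 0.170, Chrna6 from -0.0268 to 0.103, Chrnb3 from -0.0621 to 0.0222, Chrnb4 from -0.0359 to 0.0384. The values for the interaction ran for Chrna4 from -0.0310 to 0.0289, Chrnb2 from -0.0377 to 0.00446.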
